A study of Mus musculus with 2 samples.

Results

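Genes of the 4 Hox clusters of the mouse were assigned 26 of the 26232 distinct open chromatin peaks in ESC-derived cardiac progenitor cells (CPCs), or 0.0991% of the list. A peak was taken as a Hox peak when the gene symbol deposited beside it was Hox followed by a, b, c or d and a digit, and no measured level entered that choice. The 26 peaks carried 23 symbols, of which 21 were Hox coding genes and 2 were the antisense transcripts Hoxb5os and Hoxd3os1, and the other 18 of the 39 Hox coding genes had no peak assigned to them. The peaks come from ATAC-Seq, in which the Tn5 transposase cuts exposed DNA and leaves sequencing adapters there, on CPCs at day 5 of differentiation. Both samples belong to 1 group, Day5_CPC, and are independent differentiations of E14 Tg(Nkx2–5-EmGFP) ES cells, a line with a green fluorescent reporter for the cardiac gene Nkx2-5 that the labels place on a C57BL/6 background. In the directed differentiation of the study's methods, cells receive BMP4, then Activin A, VEGF and BMP4, and at last VEGF, bFGF and FGF10. Those methods also describe a hanging drop route and do not say which gave the ATAC-Seq cells. No knockdown is named for either sample (Isl1 knockdown cells, which the design names, are not analysed here). The deposited list holds 1 set of intervals shared by both replicates, so no value per replicate, no depth and no replicate error exist, and every interval printed here covers counting error over peaks, genes or windows only. A region missing from the list was not called in both replicates or is not among the lines analysed here, which is no measurement of closed chromatin.

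Hox genes encode homeodomain transcription factors that give cells their position along the head-to-tail axis. They sit in 4 clusters that arose by duplication, so that genes with the same number in different clusters, called paralogs, are each other's closest relatives, and the genes near the 3′ end of a cluster (low numbers) are switched on earlier and more anteriorly than those near the 5′ end (high numbers). Retinoic acid and Cdx factors activate the clusters, Polycomb proteins hold them silent over CpG-rich DNA, PBX and MEIS proteins bind DNA together with HOX proteins, and anterior genes such as Hoxb1 and Hoxa3 mark the posterior second heart field, a source of the venous pole and outflow tract.

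Sequence was read by the deposited coordinates from the mm9 genome (NCBIM37) and printed 5′ to 3′ on the coding strand of the Hox gene. The first set is shown because 3 of the 4 paralog 4 genes had the same arrangement of letters inside a peak. TAATTA, which many homeodomains bind, was followed after 6 bases by CCATAAA, the reverse complement of the Cdx letters TTTATGG, and both are in capitals. The windows are chr6:52140917-52141015 on the minus strand, chr11:96180663-96180761 on the plus strand and chr15:102865718-102865816 on the plus strand.
Hoxa4: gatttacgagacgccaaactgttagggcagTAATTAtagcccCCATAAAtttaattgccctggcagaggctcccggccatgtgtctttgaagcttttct
Hoxb4: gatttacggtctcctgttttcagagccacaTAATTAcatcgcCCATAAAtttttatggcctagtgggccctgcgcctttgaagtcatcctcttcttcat
Hoxc4: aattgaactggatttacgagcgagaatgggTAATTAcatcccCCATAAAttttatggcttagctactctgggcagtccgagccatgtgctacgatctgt

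All 3 stretches lay within their gene and outside every exon of a coding transcript. The Hoxa4 stretch was 726 bp downstream of the nearest coding transcription start site (TSS) and 22 bp from the peak midpoint, the Hoxb4 stretch 2704 bp and 95 bp, and the Hoxc4 stretch 931 bp and 705 bp. Compared base by base over the 99 bp shown, the Hoxa4 and Hoxb4 windows were the same at 48.5% of positions. The Hoxa4 and Hoxc4 windows were the same at 43.4%, and the Hoxb4 and Hoxc4 windows at 38.4%. The windows were lined up on the capital letters, so those positions match by choice and raise all 3 values. The identity of unrelated windows lined up in this way was not computed, so the values are no measure of conservation. The arrangement occurred 215 times in the genome on either strand. Of these, 6 (2.79%) lay in a peak, and 3 of those 6 were the Hox stretches printed above. The other 3 were in peaks assigned to Slit3, Gm4788 and Gm4907. No further match lay in the 4 clusters, so each match there was in a peak, and the Hoxd4 peak had none. The arrangement was picked after the matches in these peaks were seen, and a match of letters is a description, not a bound site.

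The second set gives 200 bp at the centre of the widest peak of the Hoxa, Hoxb and Hoxd clusters, with CpG dinucleotides in capitals, because CpG density is what the promoter comparison below turns on. The windows are chr6:52210451-52210650 on the minus strand, chr11:96180507-96180706 on the plus strand and chr2:74601397-74601596 on the plus strand.
Hoxa13: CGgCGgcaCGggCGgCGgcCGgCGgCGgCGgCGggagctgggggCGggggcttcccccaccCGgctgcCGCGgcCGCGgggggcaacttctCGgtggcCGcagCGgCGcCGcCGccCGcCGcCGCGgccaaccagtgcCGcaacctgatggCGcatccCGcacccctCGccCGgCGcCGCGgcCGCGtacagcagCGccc
Hoxb4: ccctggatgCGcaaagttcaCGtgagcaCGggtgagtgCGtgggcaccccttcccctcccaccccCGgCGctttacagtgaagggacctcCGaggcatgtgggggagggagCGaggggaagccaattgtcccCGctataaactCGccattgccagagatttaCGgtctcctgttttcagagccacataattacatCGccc
Hoxd1: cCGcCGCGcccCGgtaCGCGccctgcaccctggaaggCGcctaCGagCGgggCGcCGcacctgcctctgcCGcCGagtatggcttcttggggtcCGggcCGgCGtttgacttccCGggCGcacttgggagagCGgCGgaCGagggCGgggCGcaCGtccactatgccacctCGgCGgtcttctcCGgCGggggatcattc

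These windows held 37 CpGs in Hoxa13, 12 in Hoxb4 and 28 in Hoxd1. The Hoxb4 peak, the only one of the 3 that covers no GENCODE coding start site, had the fewest.

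The clusters themselves were dense in peaks. Counted from the first to the last Hox coding gene, they span 492 kb and held 27 peak midpoints, or 5.49 peaks per 100 kb (exact Poisson 95% interval 3.62 to 7.98), compared with 0.988 per 100 kb over the genome, a ratio of 5.55. Peaks covered 6.46% of cluster bases and 1.19% of the genome. Per coding gene the order was the reverse, with 0.692 peaks in the Hox clusters and 1.18 over the genome. Genome windows of 100 kb with at least 5 peaks made up 3.61% of all windows, and those with at least 8 made up 0.286%.

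Hoxd had the highest density of the 4. Its 96.8 kb (chr2:74506367-74603200) held 8 peaks, which is 8.26 per 100 kb (3.57 to 16.3), and 9.28% of its bases lay in peaks. Hoxc (chr15:102751534-102867274) had 7 peaks in 116 kb, or 6.05 per 100 kb (2.43 to 12.5). Hoxa (chr6:52105366-52210874) had 5 in 106 kb, or 4.74 per 100 kb (1.54 to 11.1), and Hoxb (chr11:96055630-96229570) had 7 in 174 kb, or 4.02 per 100 kb (1.62 to 8.29). The 4 intervals overlap, so the clusters could not be told apart by density. In the Dlx gene pairs, another family of clustered homeobox genes, 9 peaks in 63.6 kb gave 14.2 per 100 kb (6.47 to 26.9). The 2 Irx clusters had 24 peaks in 2194 kb, or 1.09 per 100 kb (0.701 to 1.63), an interval that lies below that of the Hox clusters. Counted per coding gene, the Irx clusters came first with 4 peaks, then the Dlx pairs with 1.5 and the Hox clusters with 0.692.

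**Figure D1:**
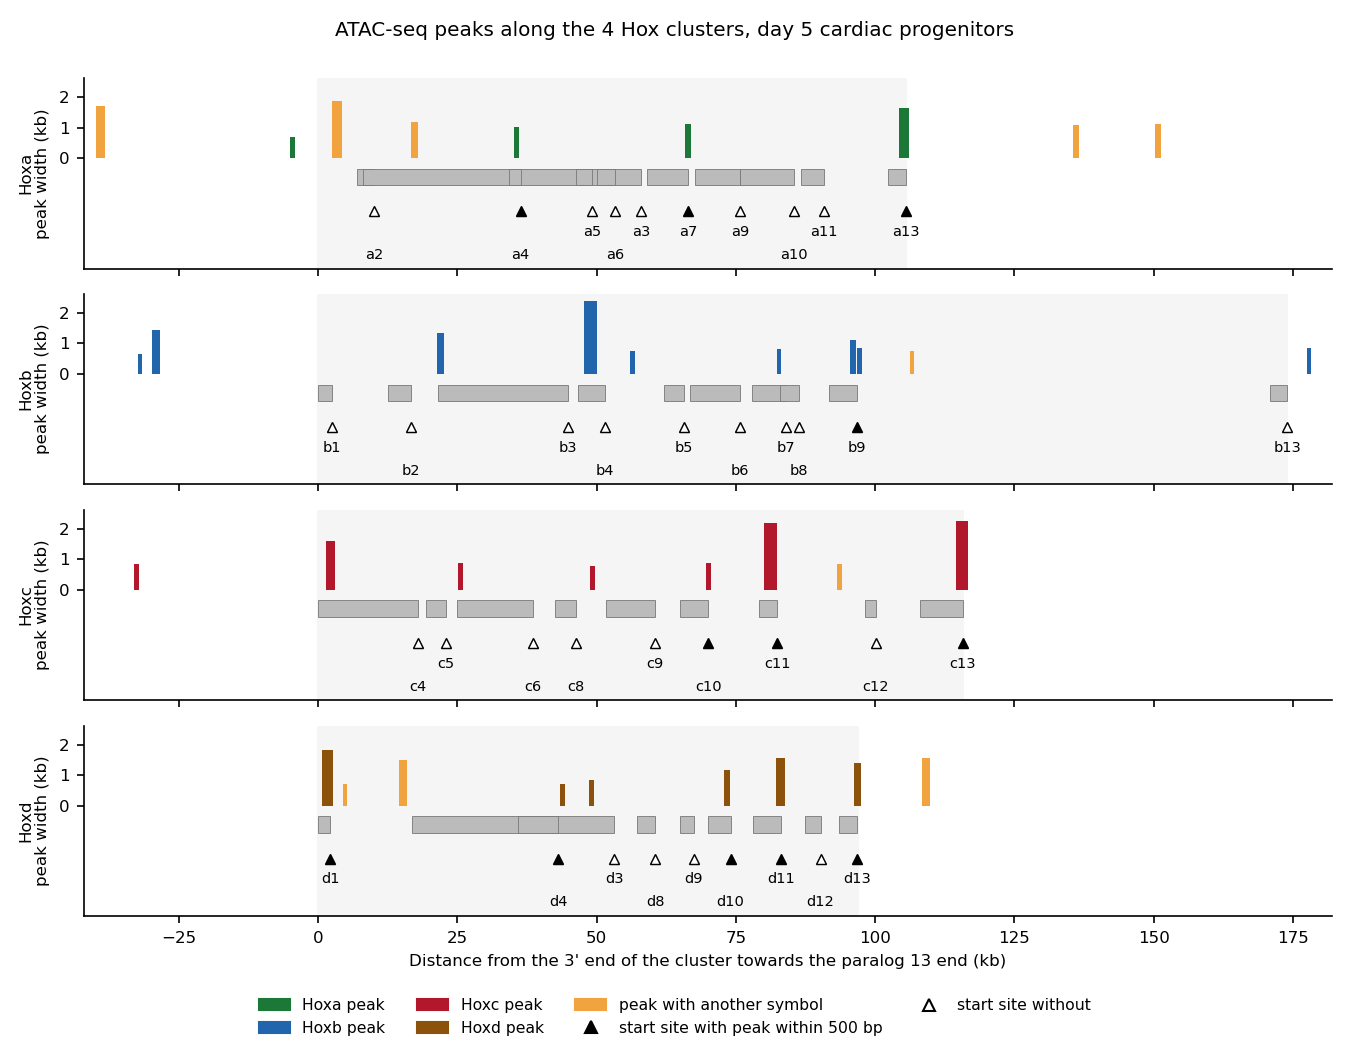
Peaks along the 4 Hox clusters by distance in kb from the 3′ end of each cluster (shaded span), with peak width in kb as bar height, gene bodies as grey boxes and the 5′-most coding start site of each labelled gene as a triangle, filled where a peak lies within 500 bp. Bars narrower than 0.8 kb are drawn at that width. The Hoxb cluster has 1 filled triangle among 10 and the Hoxd cluster 5 among 9.

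The list carried peaks and gaps in a different order in each cluster. The longest stretch of Hoxa without a peak was 37.4 kb (chr6:52172339-52209728), from Hoxa7 to Hoxa13, and took in Hoxa9, Hoxa10 and Hoxa11. In Hoxb it was 67.0 kb (chr11:96055630-96122625), the gene-poor span from Hoxb13 towards Hoxb9. In Hoxc it was 22.9 kb (chr15:102818386-102841266) and held the Hoxc8 and Hoxc6 start sites. In Hoxd it was 27.5 kb (chr2:74559621-74587142), from just upstream of Hoxd4 across most of the Hoxd3 gene body.

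Of the 39 Hox coding genes, 21 (53.8%, Wilson 95% interval 38.6 to 68.4) had a peak assigned to them, against 62.5% of all protein coding genes, a share inside the Hox interval. Hoxb9, Hoxb1 and Hoxc4 had 2 peaks each and the other genes 1, so that 3 of 21 Hox genes with a peak (14.3%, 4.98 to 34.6) had more than 1, against 39.1% of all coding genes with a peak. By position, 4 of 8 genes of paralogs 1 to 3 had a peak, 8 of 15 of paralogs 4 to 8 and 9 of 16 of paralogs 9 to 13. All genes of paralogs 4, 7 and 13 had 1 or more. No gene of paralogs 2, 5 or 12 had any.

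A smaller share of Hox promoters than of all coding promoters had a peak. A promoter was the 5′-most coding start site with 500 bp on either side, and it counted as having a peak when one overlapped it by at least 1 bp. A peak overlapped 13 of 39 Hox promoters (33.3%, 20.6 to 49.0), while the share over all coding genes was 53.7%. CpG-rich promoters (GC content of 50% or more, and 0.6 or more of the CpGs that their C and G content predicts) had a peak in 89.4% of cases over the genome but in 10 of 21 Hox cases (47.6%, 28.3 to 67.6). CpG-poor promoters had a peak in 24.9% of all cases and in 3 of 18 Hox cases (16.7%, 5.84 to 39.2). Genes of a cluster are neighbours and may share their state, so these intervals, which treat genes as independent, may be too narrow.

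The 11 CpG-rich Hox promoters without a peak were those of Hoxa3, Hoxa5, Hoxa6, Hoxa11, Hoxb7, Hoxc8, Hoxc9, Hoxc12, Hoxd3, Hoxd8 and Hoxd9. Over all 26 Hox promoters without a peak, the start site lay between 865 bp (Hoxb7) and 18849 bp (Hoxb1) from the nearest peak, with a median of 6300 bp. Several Hox genes have further start sites inside the cluster. When any annotated coding start site was allowed, Hoxa3 and Hoxc4 were added, giving 15 of 39 (38.5%, 24.9 to 54.1) against 56.3% of all genes. When the start site implied by the deposited distance was allowed as well, Hoxb4 was added, giving 16 of 39 (41.0%, 27.1 to 56.6) against 57.0%. Among genes with a CpG-rich window at any coding start site, 11 of 25 Hox genes (44.0%, 26.7 to 62.9) had a peak at such a site against 89.4% of all genes, and both Hox intervals for CpG-rich start sites lie below that share.

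**Figure D2:**
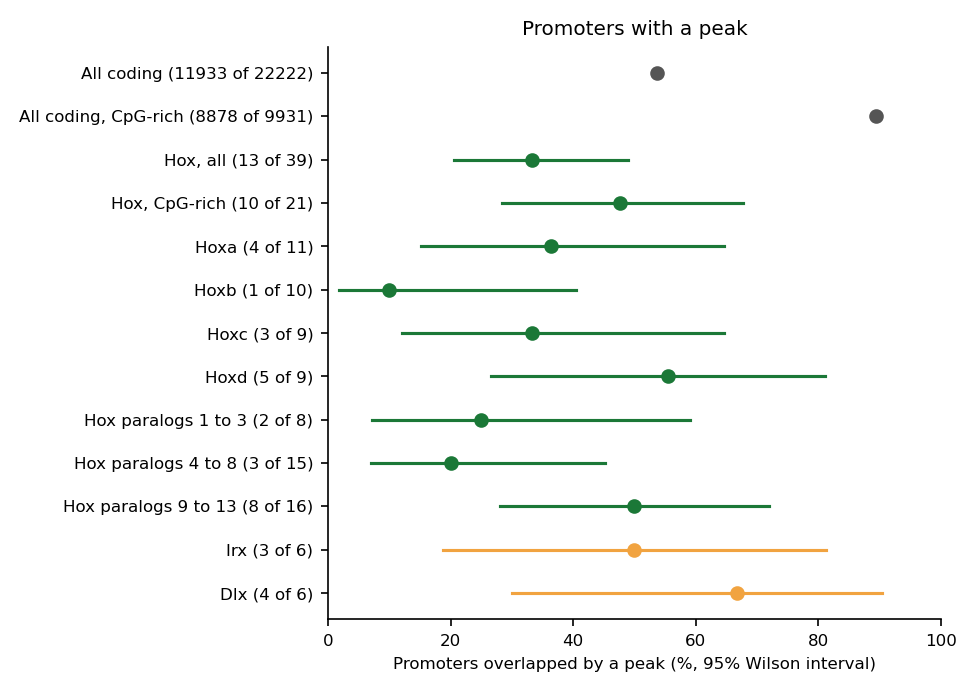
Percent of promoters overlapped by a peak (points) with 95% Wilson intervals (lines), for all coding genes, for Hox genes by CpG content, cluster and paralog number, and for the Irx and Dlx genes. The CpG-rich Hox promoters sit at 47.6% with an interval up to 67.6%, while all CpG-rich promoters sit at 89.4%.

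Promoters with a peak were unevenly placed, though on small numbers. The Hoxb cluster had 1 of 10 (10.0%, 1.79 to 40.4), Hoxc 3 of 9 (33.3%, 12.1 to 64.6), Hoxa 4 of 11 (36.4%, 15.2 to 64.6) and Hoxd 5 of 9 (55.6%, 26.7 to 81.1). Hoxb had 2 CpG-rich promoters, Hoxc 5, Hoxd 6 and Hoxa 8. Along the clusters, 2 of 8 promoters of paralogs 1 to 3 had a peak, 3 of 15 of paralogs 4 to 8 and 8 of 16 of paralogs 9 to 13 (50.0%, 28.0 to 72.0), and all these intervals overlap. By paralog number, the promoters of 3 of 4 paralog 13 genes had a peak, as did 2 of 3 of paralogs 10 and 11 and 2 of 4 of paralog 4. Not a single promoter of paralogs 2, 3, 5, 6, 8 and 12 did. In the comparison families, 3 of 6 Irx promoters (50.0%, 18.8 to 81.2), all of them CpG-rich, and 4 of 6 Dlx promoters (66.7%, 30.0 to 90.3) had a peak, and so did 4 of 5 CpG-rich Dlx promoters (80.0%, 37.6 to 96.4). The Irx interval also lies below the 89.4% of all CpG-rich promoters.

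Among the anterior genes, Hoxa3 had no peak under its own symbol, but a peak of 1171 bp deposited under the antisense transcript Hoxaas2 (chr6:52122067-52123237) covered one of its annotated start sites. Hoxb1, which patterns the hindbrain, had no peak at its promoter and 2 peaks far beyond the 3′ end of the cluster, at 31629 bp and 34405 bp, of 1452 bp and 651 bp.

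Hoxd1 had a peak of 1817 bp over its start site, the widest of its cluster. Hoxb3 had a peak of 1350 bp that lay 2459 bp downstream in its coding exon. Hoxd3 was represented by its antisense transcript alone, with a peak of 852 bp at the start site of Hoxd3os1.

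The middle of the clusters had many genes and few promoter peaks. All 4 paralog 4 genes had a peak. Hoxb4 had the widest Hox peak of all, 2402 bp at chr11:96179406-96181807, which began 1408 bp downstream of the 5′-most GENCODE start site and covered the start site that the deposited distance of 1025 bp implies. Hoxc4 had a peak of 1592 bp over an internal start site and another of 832 bp at 35021 bp, past the end of the cluster. The Hoxa4 peak was 1007 bp wide and centred 705 bp downstream, and the Hoxd4 peak was 691 bp wide and centred 761 bp upstream. Of the remaining central genes, Hoxa7, Hoxb7, Hoxc6 and Hoxc8 had a peak each, and the 1127 bp peak of Hoxa7, deposited at 3202 bp upstream, covered the 5′-most annotated start site of that gene. Hoxb5os had a peak of 745 bp between genes. Not one of Hoxa5, Hoxa6, Hoxb5, Hoxb6, Hoxb8, Hoxc5 or Hoxd8 had a peak under its symbol.

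The posterior genes pattern the trunk, limb and tail. By the 5′-most start site, 8 of the 13 Hox promoters with a peak were of paralogs 9 to 13. That was 50.0% of the 16 posterior promoters, near the 53.7% of all coding promoters. When any annotated coding start site was allowed, the posterior genes made up 8 of 15. Hoxa13 had a peak of 1644 bp, Hoxc13 of 2251 bp and Hoxd13 of 1387 bp, each over the start site. Hoxb13, the gene set apart from the rest of its cluster, had none there and a peak of 835 bp centred 4004 bp upstream. Paralogs 10 and 11 had a promoter peak in Hoxc and Hoxd and none in Hoxa, with widths of 873 bp at Hoxc10, 2176 bp at Hoxc11, 1180 bp at Hoxd10 and 1553 bp at Hoxd11. Hoxb9 had a pair of peaks of 836 bp and 1123 bp with 171 bp between them, on either side of its 5′-most GENCODE start site. The start site that the deposited distances imply lay inside the narrower peak. Hoxa9, Hoxc9 and Hoxd9 had no peak. Open chromatin is no measure of transcription, and expression was not measured in these samples.

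Of the 26 Hox peaks, 13 (50.0%, 32.1 to 67.9) lay within 1 kb of the assigned start site, against 44.9% of all peaks. By GENCODE, 13 were within 1 kb of a coding start site, 6 were intergenic, 3 intronic, and 1 each fell in a 5′ UTR (Hoxb7), a 3′ UTR (Hoxc6), a coding exon (Hoxb3) and a noncoding exon (Hoxd3os1). Inside the clusters lay 21 of the 26. Outside lay, among others, the Hoxb13 peak at the 5′ end and, beyond the 3′ end, both distal Hoxb1 peaks and the distal Hoxc4 peak. The peak farthest from its start site was at 34405 bp in Hoxb, 35021 bp in Hoxc and 761 bp in Hoxd. Conversely, 6 peaks inside the clusters carried symbols that do not begin with a Hox gene name as the rule reads it, namely Hotairm1, Hoxaas2, Mir196a-1, Hotair, LOC102634401 and Haglr.

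The more distal Hoxb1 peak had 3 GATA matches (AGATAA or TGATAA) in its central 400 bp, more than any other Hox peak. GATA factors are core regulators of heart cells. The peak was picked as the highest of the 26, and the share of all peaks with as many matches was not computed. At least a single match was in 15.4% of Hox peaks and 18.6% of all peaks.

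The widths of the Hox peaks spread around that of the list. Their median was 1065 bp (835 to 1452, range 651 to 2402) and that of all peaks 1081 bp. Peaks over a GENCODE coding start site of a Hox gene had the larger median, with 1573 bp (873 to 2251, n = 8). The others had 844 bp (784 to 1180, n = 18), although the intervals overlap. Those others include peaks of Hoxb4, Hoxb9 and Hoxd10 that cover the start site implied by their deposited distance. Where a Hox promoter had a peak, the median width was 1387 bp (1007 to 1883, n = 13), an interval that takes in the 1360 bp of all coding promoters with a peak. For CpG-rich promoters the medians were 1599 bp (1123 to 2176, n = 10) in Hox and 1428 bp over the genome.

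**Figure D3:**
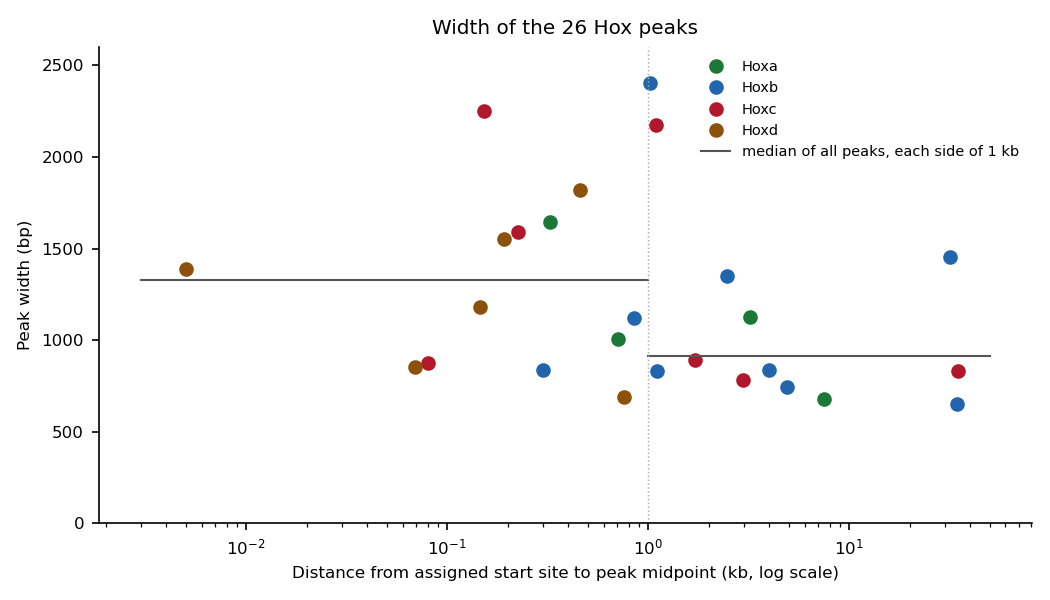
Width of each of the 26 Hox peaks in bp against the distance of its midpoint from the assigned start site in kb on a log scale, coloured by cluster. Horizontal lines mark the medians of all peaks within 1 kb (1326 bp) and beyond it (911 bp). The Hoxb4 and Hoxc11 peaks, 2402 and 2176 bp wide, lie just past 1 kb.

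In base composition, Hox peaks beyond 1 kb of the assigned start site had a higher CpG ratio than other such peaks. There the median CpG observed over expected ratio was 0.506 (0.361 to 0.601, n = 13) in Hox and 0.242 in the whole list, and the median GC content was 54.7% (50.7 to 58.7) against 51.4%, a value inside the Hox interval. Of these 13, the Hoxa7, Hoxb4 and Hoxc11 peaks lay at another annotated promoter or over the assigned start site, and without them the median CpG ratio was 0.492 (0.287 to 0.573, n = 10). Within 1 kb the CpG ratio was 0.681 (0.467 to 0.874, n = 13) in Hox and 0.685 in the list. Over all 26 peaks it was 0.584 (0.484 to 0.654) against 0.438, and GC content was 57.9% (54.4 to 61.9) against 54.5%. The extremes were both in Hoxd, with a CpG ratio of 0.894 at Hoxd13 and of 0.105 at Hoxd4. Both distal Hoxb1 peaks, at 0.213 and 0.287, were below the Hox median beyond 1 kb but on either side of the 0.242 of all such peaks.

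**Figure D4:**
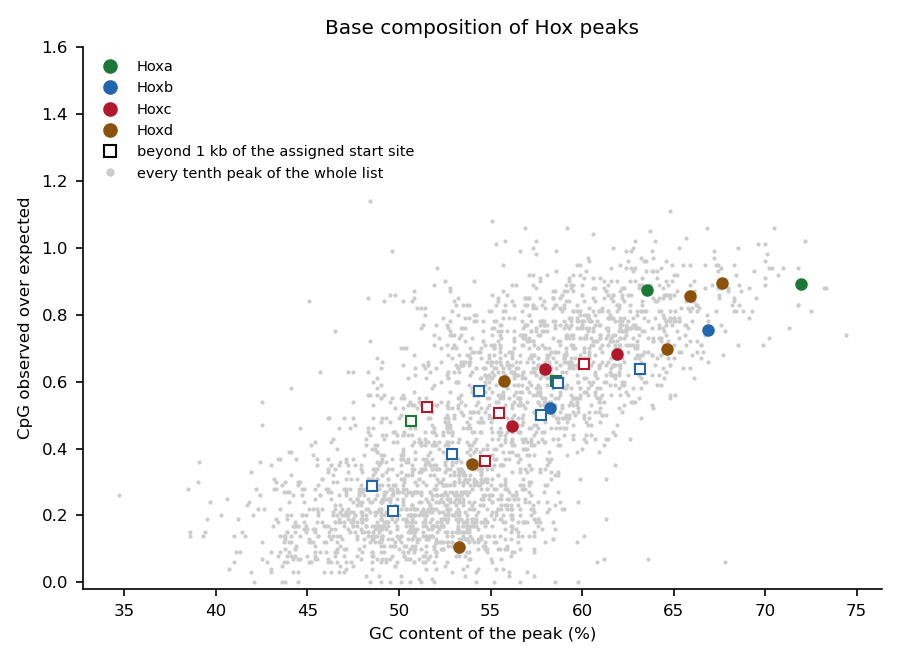
CpG observed over expected ratio against GC content in percent for the 26 Hox peaks, coloured by cluster (filled circles within 1 kb of the assigned start site, open squares beyond it), over a regular subset of the whole list in grey. Most open squares lie above a ratio of 0.3, whereas the median of all peaks beyond 1 kb is 0.242.

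Short motifs were counted on both strands in the central 400 bp of each peak, and shares over all 26232 peaks used windows of the same length. TAATTA was in 5 Hox peaks (19.2%, 8.51 to 37.9), against 4.04% of all peaks, and these were in Hoxa4, Hoxb4, Hoxb9, Hoxc10 and Hoxd11. The Cdx letters TTTATGG were in 4 (15.4%, 6.15 to 33.5), against 2.33%, in Hoxa4, Hoxb4, Hoxb9 and Hoxc4. Both shares include the Hoxa4 and Hoxb4 peaks printed above and the second also Hoxc4, genes of 1 paralog group, so the peaks are not independent. The Hoxc4 stretch with TAATTA lies outside the central 400 bp. The TCF letters CTTTGAT or CTTTGAA, read by effectors of Wnt signalling, were in 5 (19.2%, 8.51 to 37.9), among them Hoxa4, Hoxb4, Hoxb9 and Hoxc11, and the 8.85% of all peaks lies inside that interval. Over whole peaks all these shares were larger, with TAATTA in 30.8% of Hox peaks against 13.99% of all peaks. The Cdx letters were in 23.1% against 8.81% and the TCF letters in 30.8% against 27.9%.

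For the letters of cardiac and HOX cofactors the share over all peaks lay inside the Hox interval. GATA letters were in 4 Hox peaks (15.4%, 6.15 to 33.5) and 18.6% of all peaks, in both distal Hoxb1 peaks, Hoxc6 and Hoxc11. The letters CTAATG, bound by Isl1, were in 1 (3.85%, 0.682 to 18.9), the distal Hoxc4 peak, and in 8.50% of all peaks. TGACAG, the MEIS letters, were in 5 (19.2%, 8.51 to 37.9), against 25.9% of all peaks, and these included both distal Hoxb1 peaks and the distal Hoxc4 peak. TGATTNAT, read by HOX and PBX together, was in 1 (3.85%, 0.682 to 18.9), the Hoxd11 peak, against 2.16% of all peaks.

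Direct repeats read by retinoic acid receptors (a pair of units, each AGGTCA, its variant AGTTCA, or either of them with G at its start, spaced by 2 or by 5 bases) and the CTCF core were in 0 of 26 Hox peaks, which allows a share of up to 11.5% by a floor of 3 counts and of 12.9% by the Wilson interval. Over all peaks they were in 0.179%, 0.172% and 2.58%. Inside the 4 clusters the genome held 2 repeats spaced by 2 and 4 spaced by 5, and none lay in a peak, the nearest to a start site being 1116 bp from Hoxa10. Over the genome 0.607% and 1.27% of such repeats lay in a peak, so 0 of 6 is no result about the clusters. The CTCF core, a strict pattern with 6562 matches in the genome, was at 0 places in the 4 clusters. For so rare a pattern 0 is no result about the clusters either, and looser CTCF sites were not searched. A missing match says only that these exact letters are not in the window.

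The genes that act with and on the clusters had peaks almost throughout. All 9 genes of the HOX cofactors PBX, MEIS and PKNOX had a peak, 37 peaks in all, from 1 each at Pbx2 and Meis3 to 8 at Pknox2, and a peak overlapped the promoter of each. Of the caudal genes, Cdx1 had 1 peak and Cdx2 had 2, both genes with one at the promoter, and Cdx4 had 0. All 5 retinoic acid genes had 2 or 3 peaks, among them Aldh1a2, the enzyme that makes retinoic acid, and Cyp26a1, the one that degrades it. All 7 Polycomb and Trithorax genes, such as Ezh2, Eed and Suz12, had a peak, 10 in all. The neighbours Evx1 and Evx2 had 2 and 1. Of 9 noncoding RNAs of the clusters, 4 had a peak (Hotair, Hotairm1, Halr1 and Mir196a-1), while Hottip, Mir10a, Mir10b, Mir196a-2 and Mir196b had 0. Of the cardiac progenitor markers, Isl1, Nkx2-5, Tbx5, Gata4 and Mef2c had 3 to 8 peaks each and Hand2 had 0. For the lists of coding genes the background is the 62.5% of all protein coding genes with a peak, and no such background was computed for the noncoding RNAs.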

How the data were processed

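ATAC-Seq libraries from 2 independent differentiations of day 5 CPCs formed 1 group. Per the labels and the study's methods, the authors mapped reads to mm9 with Bowtie2, filtered them with SAMtools, removed duplicates with Picard 1.136, called peaks with MACS14 using a fixed shift, dropped blacklisted regions and kept peaks overlapping in both replicates with bedtools 2.15. A separate correction for the Tn5 cut position is not described. Annotation with HOMER is described for ChIP-Seq peaks. The deposited list, without header, gives interval start and end, distance from TSS to midpoint (all in bp), RefSeq accession and symbol. It holds no scores or counts, so depth is unknown, neither replicate could be left out and no test was run.

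The 26429 lines were reduced to 26232 distinct intervals, printed 1-based. Sequence came from NCBIM37 and gene models from GENCODE vM1. Genes were matched to peaks by symbol or accession, and of the 24 member peaks with a coding symbol 10 had a deposited distance equal to a GENCODE start site within 1 bp. Promoters were the 5′-most coding start site with 500 bp on either side, with windows of 250 and 1000 bp, any start site, wide peaks and a larger overlap as alternatives. Intervals are Wilson for shares, exact Poisson for densities and order statistics for medians, at 95%. Scripts used Python 3.11.15, numpy 2.4.6 and scipy 1.17.1 and were tested on simulated data.

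Described in full were, per cluster, the gene with most peaks, the widest peak, the most distal peak and the longest gap, together with Hoxb1, Hoxa3 and paralog 13. The values of 1 gene and some sequences are not reported here. The Hox genes and gene lists were chosen with earlier results of these data known.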

Additional observations from a re-analysis of the deposited data

How the results depend on the processing

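Of 33 alternative settings, 28 left the value within its interval, or within 1.5 times for a count, and 5 moved it. With only peaks wider than the list median, 13 Hox peaks and 13 Hox coding genes were left and the density in the clusters was 3.05 per 100 kb. With an overlap of more than 500 bp of the promoter window, 20.5% of Hox promoters had a peak (10.8 to 35.5), against 51.9% of all coding promoters. Over whole peaks, 42.3% of Hox peaks held the MEIS letters, against 55.5% of all peaks. The alternatives with deposited start sites and with any CpG-rich start site were chosen after seeing the data. Leaving out a replicate was not run, since the list holds no value per replicate. No paired analysis was possible because both samples share 1 group and 1 list. Unknown depth and the caller's threshold limit what the absence of a peak can show.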
